A study of Bos taurus with 3 samples.

Results

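Among 20728 epithelial cells of the bovine rumen, 1734 (8.37%) were taken as cycling, and these were divided by whether they held RNA of the gap junction gene GJA1. A cell was selected as cycling when it had at least 3 UMIs (unique molecular identifiers, each standing for 1 captured transcript) of TOP2A plus MKI67. It was placed on the side with GJA1 when it had at least 1 UMI of that gene, and on the other side when it had 0. This gave 217 cycling cells with GJA1 and 1517 without. Since the counts of TOP2A, MKI67 and GJA1 chose the cells, their levels are given below as a description, with no test, and all 3 genes were taken out before other genes were compared.

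The cells came from the ventral sac of the rumen of 3 adult lactating Holstein dairy cows, with 1 droplet library per cow and no treatment. The muscle was stripped off, enzymes freed the epithelium, and the authors removed cells of other tissues and predicted doublets before deposit. With 1 library a cow, animal and library cannot be told apart. Cow 1 gave 76 cycling cells with GJA1 and 165 without, cow 2 gave 43 and 171, and cow 3 gave 98 and 1181.

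GJA1 encodes connexin 43, which forms hexameric channels in the cell membrane. Channels of neighbouring cells dock into gap junctions, through which ions and small metabolites pass from cell to cell. The rumen wall is lined by a stratified squamous epithelium without a mucous layer, where volatile fatty acids from microbial fermentation are taken up. Its basal cells rest on the basement membrane and divide, its spinous cells lie above them and are rich in connexins, and its granular and cornified cells face the lumen. TOP2A untangles DNA at chromosome segregation and MKI67 coats mitotic chromosomes, and both are transcribed from S phase to mitosis. In most stratified epithelia division is largely a property of the basal and lowest suprabasal cells, so a cycling cell with a marker of the spinous layer invites a closer description of which other genes it carries.

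GJA1 was found in a larger share of cycling cells than of non-cycling cells in cows 1 and 2 and in about the same share in cow 3. In cow 1, 31.5% of the cycling cells held GJA1 (76 of 241, exact binomial 95% interval 25.7 to 37.8%). In cow 2 the share was 20.1% (43 of 214, 14.9 to 26.1%), and in cow 3 it was 7.66% (98 of 1279, 6.26 to 9.26%). The mean of the cows was 19.8% ± 11.9 (SD, n = 3). Non-cycling cells, those with 0 UMIs of TOP2A plus MKI67, held GJA1 in 20.7%, 8.10% and 6.95% of cells in the same order. These intervals cover counting error alone.

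Depth entered these shares, since cycling cells had medians of 14807 to 18918.5 UMIs and non-cycling cells of 9167.5 to 11730. After each cell was thinned to 6000 UMIs, with 72 of the 1734 cycling and 2437 non-cycling cells left out as too shallow, the share of cycling cells with GJA1 was 24.8%, 12.6% and 3.91% in cows 1 to 3. Non-cycling cells stood at 18.0%, 6.09% and 5.65% on the same footing. The order of the 2 populations therefore turned over in cow 3. As a background level, which free RNA can also give, non-cycling cells with at least 3 UMIs of DLK2 were used, a group known from earlier results of these data to hold little GJA1. They held a GJA1 UMI in 9.25%, 3.46% and 1.85% of cells before thinning and in 7.91%, 2.54% and 2.22% after it. In cow 3 the thinned interval of the cycling cells, 2.89 to 5.15%, overlapped that of the DLK2 cells, 0.609 to 5.59%, so a share above this background was not detectable there at this depth. A limit of 2 GJA1 UMIs left 23.2%, 15.0% and 3.05% of the cycling cells against 1.71%, 1.34% and 0 of 216 DLK2 cells, which allows a share of up to 1.39% at 3 counts of the total (exact binomial upper limit 1.69%).

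**Figure D1:**
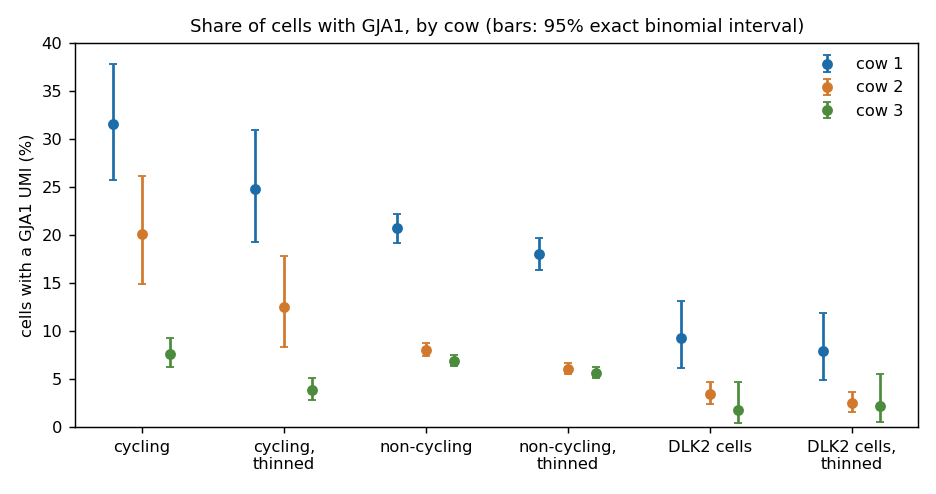
Share of cells with at least 1 GJA1 UMI, in percent, for cycling cells, non-cycling cells and DLK2 cells of each cow, as deposited and after thinning each cell to 6000 UMIs; bars are exact binomial 95% intervals. Cycling cells of cows 1 and 2, at 31.5% and 20.1%, lie above the other groups of the same cow, while cow 3 falls from 7.66% to 3.91% on thinning.

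Most positive cells held few copies. Of the 217, 90 had exactly 1 GJA1 UMI, 69 had 2 to 5, and 34 had 10 or more, with a highest count of 37. Per 10000 UMIs the GJA1 level of the positive side was 3.78, 2.26 and 1.76 in cows 1 to 3. The 2 genes that marked the cycle were mostly lower on the side with GJA1. TOP2A stood at 5.79, 3.25 and 5.25 per 10000 UMIs with GJA1 and at 7.0, 3.29 and 6.0 without, and MKI67 stood at 4.01, 2.82 and 3.03 against 5.6, 2.53 and 3.59. With cells paired by depth the median of TOP2A plus MKI67 was 12, 10 and 10.5 UMIs with GJA1 and 22, 12 and 15 without. At the threshold itself, cells with exactly 3 UMIs of TOP2A plus MKI67 held GJA1 in 35.0%, 10.7% and 8.46% of cases, and cells with exactly 2, just outside it, in 37.2%, 22.0% and 4.21%.

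Cells with GJA1 were deeper and richer in mitochondrial RNA than their partners in every cow. Their median was 17936.5 UMIs against 14476 in cow 1, 21939 against 17938 in cow 2 and 17022 against 14682 in cow 3, ratios of 1.24, 1.22 and 1.16. The median mitochondrial share was 26.9% against 21.8%, 14.6% against 11.6% and 14.1% against 12.5%. With 3 pairs the smallest two-sided p of an exact sign-flip permutation is 0.25, so neither difference could reach 0.05 by that test. Within each cow, cycling cells were also cut at the median of the ratio of G2 and mitosis to S phase transcripts. The class nearer to mitosis held 47.4%, 65.1% and 68.4% of the cells with GJA1 and 50.9%, 46.2% and 48.4% of those without. Depth, mitochondrial share and phase therefore move with the split, and for many results the values with cells paired by depth, or with phase in the model, are given below. Since a doublet of a cycling and a GJA1 cell would also be deep, calls were counted again without the deepest 10% of the cycling cells of each cow (395 higher and 387 lower); the part of doublets in the result was otherwise not tested.

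Keratinocyte markers were plain on both sides and markers of other tissues were close to nil. KRT5, KRT14 and KRT15, keratins of basal keratinocytes, stood at means of 48.7, 36.7 and 42.3 per 10000 UMIs with GJA1 and 53.3, 39.9 and 38.6 without. COL1A2, COL3A1, DCN, MYH11 and DCT were at 0 on both sides, and PTPRC, CD3E, TYROBP, PECAM1 and CDH5 were at 0 in the cells with GJA1. CD68, VWF, PMEL, DES and COL1A1 had 10, 7, 3, 2 and 1 UMIs with GJA1 against 67, 31, 18, 14 and 3 without. Per 10000 UMIs VWF averaged 0.018 with GJA1 and 0.012 without. The summed lists ranged from 0.030 to 0.062 per 10000 UMIs for 10 immune markers and from 0.012 to 0.036 for 6 endothelial markers in the cells with GJA1, against 0.058 to 0.109 and 0.013 to 0.054 in those without. SBSN and DSG1, which mark the upper layers, were at 0 UMIs with GJA1 and at 7 UMIs each without. The side without GJA1 held 1517 cells against 217, so a 0 of such scarce genes does not show a difference between the sides. Across the 3 libraries 35 barcode sequences were found in 2 libraries, and of the 7 cycling cells among them none held GJA1.

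UMI counts were then summed per cow and side and compared gene by gene, with the cow as a block, by the edgeR quasi-likelihood test. A gene was called at a Benjamini-Hochberg adjusted p under 0.05 and an absolute log2 fold change over 0.25. Of 7684 genes tested, 539 (7.01%) were higher and 527 (6.86%) were lower in cycling cells with GJA1, and 1012 of the 1066 moved the same way in 3 of 3 cows. The median log2 fold change of all genes was -0.01. The common biological coefficient of variation was 0.0633, and the fit shared 1 spread across all genes. The smallest adjusted p-values thus speak mainly of counting error, and the per-cow values carry the replication. DESeq2 called 186 higher and 104 lower, of which 289 were among the 1066, and without the cow in the model no gene was called, with 472 genes at an unadjusted p under 0.05.

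Few genes were called in cells with a single copy of GJA1. When the positive side held only the 90 cells with exactly 1 UMI, 6 genes were higher and 1 was lower, and when it held only cells with 2 or more, 580 were higher and 585 lower. The cells with 1 UMI numbered 20, 11 and 59 in cows 1 to 3, against 127 cells with 2 or more in all. With 1 UMI, 1008 of the 1040 called genes that could be tested kept their sign. Pairing 213 cells of each side by depth within cows, to within 10%, gave 352 higher and 350 lower genes, and 634 of the 1066 were called again. Pairing by depth and phase together, over 211 pairs and 4490 testable genes, gave 217 and 247, and the sign was kept by all 836 of the called genes that could be tested there. The genes were chosen by their calls and these fits reuse cells that gave the calls. The counts of kept signs and repeated calls are therefore not independent evidence. As a background for list counts below, leaving out cow 1 gave 321 higher and 283 lower of 7880 genes. Leaving out cow 2 gave 475 and 309 of 7924, and leaving out cow 3 gave 225 and 232 of 7660. DESeq2 gave 186 and 104 of 7684 genes fitted, and thinned cells gave 172 and 181 of 4916. DESeq2 gave no adjusted p for some of the genes fitted, and gave one for 73 of the 87 named genes. Genes without one count as not called in all DESeq2 counts below, which stand beside the genes fitted. Cow and phase as the block gave 473 and 421 of 6400, and pairing by depth gave 352 and 350 of 6630. Each fit with phase in the block took the phase classes of a cow as separate blocks. The animals stayed the same, so the counts of such a fit are not on a par with those of the other fits.

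**Figure D2:**
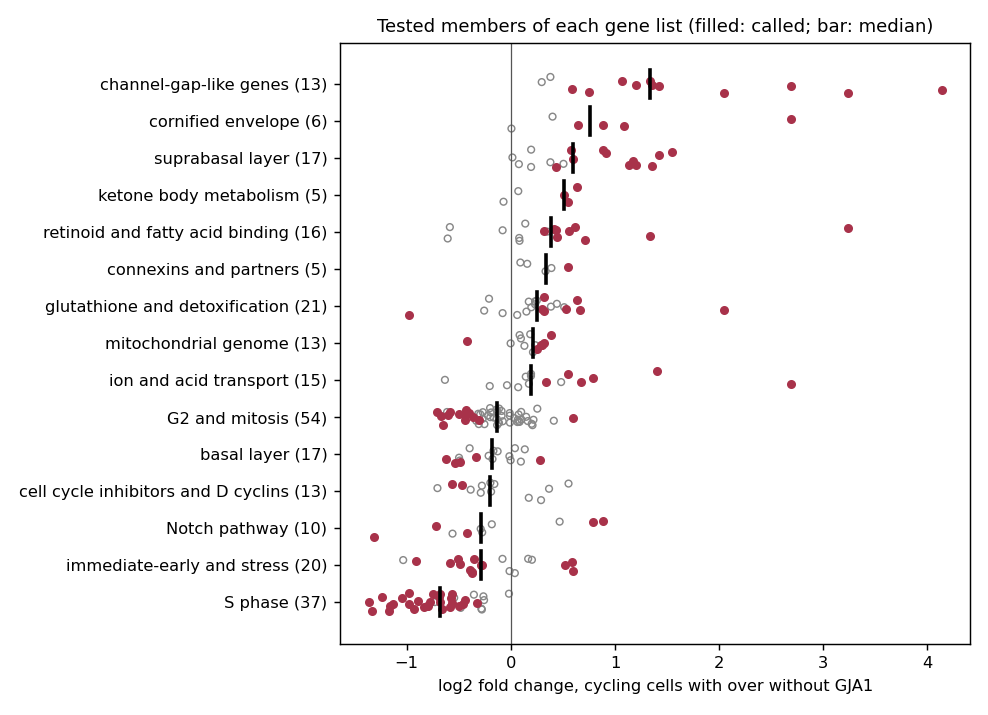
Log2 fold change of each tested gene, cycling cells with over cycling cells without GJA1, grouped by gene list with the number of tested members in brackets; filled points were called, and the black bar is the list's median. The DLK2 group, with 2 tested members and a median of -1.38, is not drawn. Among the lists drawn the median runs from -0.68 for the S phase list to 1.34 for the genes of channel-gap-like cells.

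Genes that the study ties to channel-gap-like spinous cells, named for their junction genes, were also higher in the cycling cells that held GJA1. These 16 genes were put together from the study and earlier results on the same cells, so their direction is not independent evidence. Of 13 that could be tested, 11 were higher and none lower, beside 7.01% higher among all genes tested, with a median log2 fold change of 1.34. Their summed level was 28.7, 26.4 and 38.5 per 10000 UMIs with GJA1 in cows 1 to 3 (31.2 ± 6.39, SD) and 12.2, 10.5 and 14.2 without (12.3 ± 1.87), and the sides did not overlap. Not called were TM4SF1, a tetraspanin-like membrane protein, at 0.30 and KRT10 at 0.38. GSTA1, BPIFA2C and the S100A8, S100A9, KRT6A and KRT6B genes belong to families of related genes. How the authors' counting treated reads that match more than 1 member was not examined. DESeq2 called 8 of the 13.

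BPIFA2C, of the family of secreted lipid-binding BPI fold proteins, had the largest step among genes with a mean of at least 20 CPM (UMIs per 1000000 UMIs of the sum, after TMM scaling, a correction for the make-up of each sum). It measured 506, 179 and 172 CPM in cows 1 to 3 with GJA1 and 40.2, 12.5 and 6.40 without. The lowest value with GJA1 was thus above the highest without, and the log2 fold change was 4.14 ± 0.12, where the error is the standard error, as for all log2 fold changes below. RBP2, a cytosolic retinol carrier, measured 37.7, 35.4 and 17.9 CPM against 1.88, 5.36 and 2.02, a log2 fold change of 3.24 ± 0.27 with no overlap. Its counts were low, with 31 to 52 UMIs per sum on the positive side. The levels without GJA1 would not have passed the filter on low counts, so RBP2 became testable only through these positive sums.

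GSTA1, a glutathione transferase, was at 302, 254 and 943 CPM with GJA1 and at 85.0, 58.6 and 213 without (2.05 ± 0.10). Cow 3 was high on both sides, and each cow's pair showed a like step. SLC9A2, a sodium-proton exchanger of epithelial membranes, was scarce at 16.7, 13.3 and 8.07 CPM against 3.76, 1.07 and 1.15 (2.69 ± 0.36). Like RBP2, SLC9A2 became testable only through the sums with GJA1, and both are counted among the higher members of their lists. FABP4, a fatty acid carrier, was at 160, 290 and 177 CPM against 83.9, 119 and 55.9 (1.34 ± 0.10), with no overlap of the sides. In the cells with exactly 1 GJA1 UMI its difference was -0.06 and was not called.

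Next came genes of the layers above the basal one. S100A8, KRT6A, TMEM79 and KRT10 stand in both this list and the channel-gap-like one, so the lists are not separate evidence; RBP2 and FABP4 are likewise shared with the retinoid and fatty acid list below, GSTA1 with the glutathione list and SLC9A2 with the ion carriers. Of 17 tested suprabasal genes 11 were higher and none lower, with a median of 0.59, beside 7.01% of all genes tested. Without cow 3, 7 of 17 were higher, as they were by DESeq2. Their sum was 100, 129 and 136 per 10000 UMIs with GJA1 against 74.1, 79.7 and 93.6 without, and the sides did not overlap. Of the mean of 121 with GJA1, S100A8, KRT6A and KRT10 gave 7.74, 5.40 and 0.28. Of the mean of 82.4 without, the same genes gave 3.00, 2.29 and 0.21. Most of the sum thus came from other members, and it is not a level of these spinous markers. S100A8, which pairs with S100A9 into the antimicrobial protein calprotectin, was at 787, 740 and 810 CPM against 400, 211 and 282 (1.43 ± 0.09). S100A9 was at 115, 84.1 and 70.9 CPM against 23.3, 26.8 and 33.5 (1.55 ± 0.12). In both genes every cow's positive sum exceeded all negative ones.

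TMEM79, a membrane protein of the lamellar granule system that builds the epidermal barrier, stood at 66.7, 67.5 and 57.7 CPM with GJA1 and 30.8, 27.2 and 20.0 without (1.35 ± 0.14). KRT6A, a keratin of suprabasal and activated keratinocytes, measured 224, 498 and 897 CPM against 130, 181 and 369 (1.203 ± 0.09), where cows overlapped but each pair stepped up. S100A2 and KRT17 were higher by smaller steps, 0.58 ± 0.08 and 0.44 ± 0.08. ZNF750 and OVOL1, transcription factors that drive keratinocyte differentiation, were higher by 1.17 and 1.14. Desmosomal DSP and DSG3, at 0.01 and 0.08, did not pass.

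Late markers were fewer. Only 6 of 27 cornified envelope genes were testable in cycling cells, 20 of the 27 being named in the files, and 4 of the 6 were higher with none lower, beside 7.01% higher among all genes tested. TGM3, a transglutaminase that cross-links the cornified envelope, was at 5.80, 58.7 and 19.0 CPM with GJA1 against 3.01, 3.93 and 3.66 without (2.69 ± 0.27), so cow 2 was far the highest and cow 1 the lowest. TGM3 too became testable only through the sums with GJA1. LYPD3 measured 83.4, 131 and 101 CPM against 52.3, 70.7 and 50.5 (0.88 ± 0.11). The envelope scaffold EVPL (1.09 ± 0.29) was not called without cow 1, at 1.03, and the claudin CLDN4 (0.65 ± 0.10) was not called without cow 3, at 0.37. KLF4 was at 0.01 ± 0.10.

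Of 17 tested basal layer genes, 12 were not called, 4 were lower and 1 was higher, beside 6.86% lower and 7.01% higher among all genes tested, with a median of -0.18. KRT5 measured 3595, 4846 and 6252 CPM with GJA1 and 4189, 4983 and 6800 without, and KRT15 measured 4169, 4232 and 4382 against 3463, 4446 and 3810. Their log2 differences of -0.13 ± 0.08 and 0.13 ± 0.08 did not pass. TP63, the master regulator of stratified epithelia, was at -0.01. ITGB1, the common beta chain of collagen and laminin receptors, was at 58.0, 53.1 and 66.3 CPM against 82.0, 76.1 and 91.1 (-0.48 ± 0.12), with no overlap. CDH3, the basal cadherin, measured 23.2, 17.7 and 20.8 CPM against 43.2, 18.2 and 32.0 (-0.63 ± 0.18), and it was not called without cow 1 or without cow 3, nor with cells paired by depth (-0.40). IGFBP6, a binding protein of insulin-like growth factors, was at -0.54 ± 0.12 and at -0.06 without cow 3. ITGA6, the alpha chain of the hemidesmosome integrin, was the 1 higher member, at 0.28, close to the limit of a call. No member was higher without cow 1, with cow and phase as the block, with library size alone, in thinned cells, without the deepest 10% of cells or by DESeq2. Without cow 3 none of the list was called, and with cells paired by depth 1 member was lower and 1 higher.

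CDH1, the cadherin of all keratinocyte layers, was at 50.8, 45.4 and 40.9 CPM with GJA1 and 32.3, 30.4 and 29.7 without (0.55 ± 0.15), and it was the only called gene of 5 tested connexins and junction partners, beside 7.01% higher among all genes; without cow 1 or cow 3 it was not called. GJB5, another connexin, was at 0.39 and TJP1, which anchors connexin 43 to the cytoskeleton, at 0.33, and neither passed. Of the 15 members of this list that the files name, 5 could be tested in cycling cells. DESeq2 called none of them. GJB2, encoding connexin 26, was too scarce for the filter on low counts, with 5, 11 and 41 UMIs in the sums of cows 1 to 3 with GJA1 against 0, 0 and 16 without; it was called higher without that filter and when cow 1 was left out.

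Genes of S phase, which copy the DNA and prepare its building blocks, were lower across their list. Of 37 tested members 28 were lower and none higher, beside 6.86% lower among all genes tested, and the median was -0.68. The summed level was 9.78, 11.1 and 13.1 per 10000 UMIs with GJA1 against 13.6, 16.8 and 22.2 without, with no overlap. CLSPN, which relays replication stress to the checkpoint kinase, measured 12.3, 16.6 and 13.8 CPM against 24.4, 37.2 and 37.0 (-1.24 ± 0.20). POLD3, a subunit of the replicative DNA polymerase delta, measured 10.2, 14.4 and 16.1 against 19.2, 35.0 and 37.4 (-1.16 ± 0.20). The sides did not overlap for either gene.

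GMNN, the inhibitor of repeated origin licensing, stood at 15.95, 36.5 and 51.3 CPM against 37.6, 92.9 and 103 (-1.13 ± 0.13). PCNA, the sliding clamp of DNA polymerases, was at 72.5, 138 and 135 CPM against 105, 218 and 258 (-0.75 ± 0.10). The helicase subunits MCM2, MCM4, MCM5 and MCM6 were lower, at -0.97 to -0.77, as was the ribonucleotide reductase subunit RRM2, at -1.04. RRM1 and USP1, both at -0.26, did not pass.

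Position in the cycle and cow 3 moved with this list. As to the position in the cycle, the positive side held more cells of the class nearer to mitosis in cows 2 and 3. With cow and phase as the block 13 of 35 members were lower, with a median of -0.39, beside 421 of all 6400 genes tested. With cells paired by depth and phase 8 of 24 were lower, with a median of -0.38, beside 247 of all 4490. The classes were cut with these very genes, so part of this narrowing follows from the cut. Without cow 3, 11 of 37 members were lower, with a median of -0.46, beside 232 of all 7660 genes tested. DESeq2 called 8 lower, with a median of -0.67, beside 104 of all 7684 genes fitted.

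Of 54 tested genes of G2 and mitosis, 41 were not called, 12 were lower and 1, the microtubule regulator JPT1, was higher at 0.60, beside 6.86% lower among all genes tested, and the median was -0.13. With cow and phase as the block the median was -0.24 and 16 of 54 were lower, beside 421 of all 6400 genes tested. With cells paired by depth and phase the median was -0.31 and 19 of 51 were lower, beside 247 of all 4490. The phase classes were cut with these genes too. CENPF, a kinetochore protein, measured 972, 698 and 724 CPM against 1358, 620 and 734 (-0.12 ± 0.08, not called). Cyclin B1 (CCNB1, 0.21), PLK1 (0.25), CDK1 (0.10) and CDC20 (0.07), the engine of mitotic entry and exit, were not called. HMGB2, a chromatin protein, was at 326, 385 and 488 CPM against 540, 670 and 617 (-0.61 ± 0.09), with no overlap of sides, and the nuclear envelope gene TMPO was at -0.67 ± 0.12. The kinase TTK (-0.65 ± 0.17) was not called without cow 1, at -0.49, nor with cells paired by depth, at -0.45. The heterochromatin protein CBX5 (-0.71 ± 0.17) was not called without cow 1, at -0.57. Of the list, 4 members were lower without cow 1 and 8 without cow 2.

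**Figure D3:**
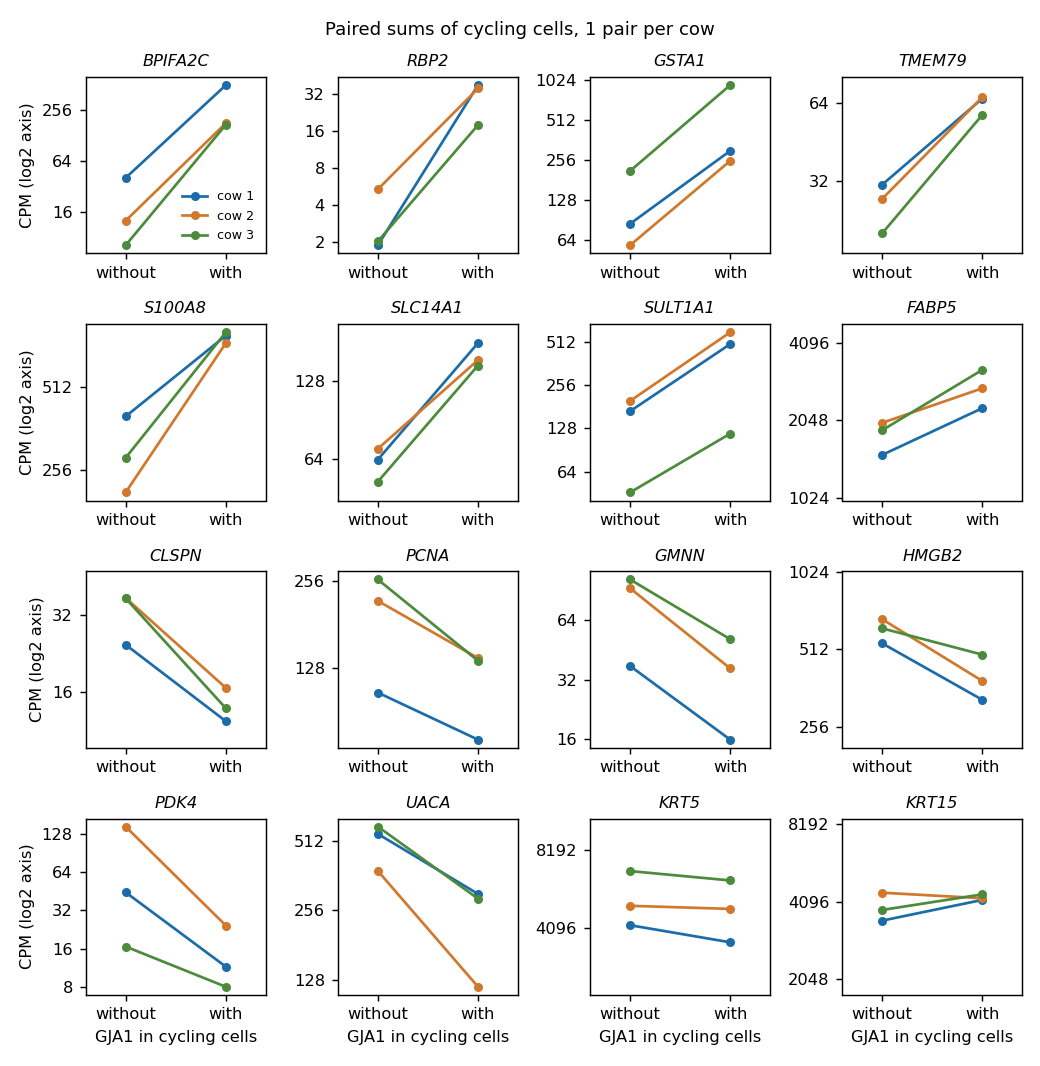
CPM (after TMM scaling, log2 axes) of 16 genes in the paired sums of cycling cells without and with GJA1, with 1 line per cow. BPIFA2C, RBP2, GSTA1, TMEM79, S100A8, SLC14A1, SULT1A1 and FABP5 step up and CLSPN, PCNA, GMNN, HMGB2, PDK4 and UACA step down in 3 of 3 cows, while KRT5 and KRT15 stay near level.

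Of 13 tested brakes of the cell cycle and D cyclins none was higher and 2 were lower, with a median of -0.20, beside 7.01% higher and 6.86% lower among all genes tested. CDKN1A, the p21 inhibitor induced on differentiation and damage, measured 42.8, 97.4 and 28.3 CPM with GJA1 and 29.3, 104 and 14.4 without (0.37 ± 0.14, not called); without cow 2 it was called higher, at 0.79. CDK4, the partner of D cyclins, was at 51.5, 68.6 and 65.7 CPM against 50.8, 108 and 102 (-0.47 ± 0.12), level in cow 1, and without cow 3 it was not called, at -0.33. No member of the list was lower without cow 3 or by DESeq2, and 1 was without cow 1.

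The Notch pathway, which switches keratinocytes from the basal to the spinous state, had called members in both directions, with ligands among the lower ones. DLL1, a ligand of basal cells, measured 8.70, 7.75 and 6.92 CPM against 17.7, 17.5 and 20.9 (-1.31 ± 0.26), with no overlap, and JAG2, another ligand, measured 94.3, 67.5 and 76.1 against 129, 110 and 88.7 (-0.42 ± 0.11). The target-type repressor HES2 was at 20.3, 24.4 and 21.9 CPM against 14.7, 15.4 and 10.6 (0.79 ± 0.21), and the receptor NOTCH3 was at 5.80, 12.2 and 11.5 against 3.38, 6.43 and 6.18 (0.88 ± 0.31). The NOTCH3 levels without GJA1 would not alone have passed the filter on low counts, so NOTCH3 became testable only through the sums with GJA1. It is counted among the higher members. HES1, the common target, was at -0.18 and did not pass. In all 2 of 10 tested members were higher and 3, with DLK2, were lower, beside 7.01% and 6.86% of all genes. These calls depended on the cows kept. Without cow 1 or cow 2 JAG2 was not called (-0.40 and -0.31), and without cow 3 neither DLL1 (-1.07) nor HES2 (0.56) was. NOTCH3 was not called when any one cow was left out. DESeq2 called no member.

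Of the DLK2 group, 6 genes that the study and earlier results of these cells set apart, only DLK2 and PDK4 could be tested; both were lower, beside 6.86% of all genes tested. DLK2, a membrane protein of the Notch ligand family, was at -0.72. Leaving out any one cow left 1 lower member, as did DESeq2. PDK4, the kinase that closes pyruvate dehydrogenase when fatty acids are burnt, had the largest fall among genes with a mean of at least 20 CPM. It measured 11.6, 24.4 and 8.07 CPM with GJA1 and 44.4, 145 and 16.7 without (-2.05 ± 0.19), down in 3 of 3 cows though the cows overlapped.

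Metabolic genes of the absorptive epithelium were mostly higher or level. Of 16 tested genes of retinoid and fatty acid binding 9 were higher and none lower, beside 7.01% of all genes, with a median of 0.38, and their sum was 52.3, 47.4 and 52.9 per 10000 UMIs against 38.2, 35.5 and 40.5. FABP5, the epidermal fatty acid carrier, measured 2282, 2727 and 3216 CPM with GJA1 and 1502, 2001 and 1873 without (0.61 ± 0.08), with no overlap. RBP4 was at -0.08 ± 0.08. The retinoic acid partner receptor RXRA and PPARD, a fatty acid receptor, were higher by 0.56 and 0.41. LRAT, which esterifies retinol, at 0.71 ± 0.26, was not called when any one cow was left out, nor with cells paired by depth (0.22). Without cow 3, 4 members of 17 were higher, and DESeq2 called 4 of 16.

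In the ketone body list 3 of 5 tested genes were higher and none lower, beside the same 7.01%, with a median of 0.51 and a sum of 27.0, 25.3 and 23.0 per 10000 UMIs against 18.9, 18.4 and 16.3. The rumen epithelium turns butyrate into ketone bodies, and this is a mark of its absorbing cells. Of 21 tested genes of glutathione and detoxification 7 were higher and 1 lower, beside 7.01% and 6.86% of all genes, with a median of 0.25. Without cow 3, 4 of 21 were higher, and in thinned cells 3 of 19 were. MGST3, a microsomal glutathione peroxidase, stood at 1721, 2992 and 2295 CPM against 1113, 1950 and 1463 (0.63 ± 0.08), and GSTO1 at 140, 321 and 202 against 105, 204 and 114 (0.66 ± 0.09). GSTT1 was the lower one, at 5.08, 7.75 and 22.5 CPM against 17.7, 23.9 and 33.8 (-0.97 ± 0.21, and -1.70 without cow 3).

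Ion and water carriers gave 6 higher and 0 lower of 15 tested, beside 7.01% higher among all genes, with a median of 0.19 (1 carrier was lower when cow 2 was left out). The median was 0.40 with cells paired by depth, where 5 of 14 were higher, and 0.45 with cells paired by depth and phase, where 5 of 10 were. DESeq2 called 3 of 15, and in thinned cells 2 of 11 were higher. SLC14A1, the urea transporter that returns blood urea to the rumen, measured 181, 155 and 148 CPM against 63.6, 70.0 and 52.2 (1.41 ± 0.10), with no overlap. AQP3, a water and glycerol channel, was at 157, 33.2 and 234 against 89.5, 34.3 and 121 (0.78 ± 0.11), level in cow 2. The carbonic anhydrases CA1 and CA12 were higher by 0.68 and 0.55. ATP1B3, a subunit of the sodium pump, was at 0.07 ± 0.08 and did not pass.

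Immediate-early genes, which answer to handling as well as to growth signals, were mixed, with 3 of 20 higher and 10 lower, beside 7.01% and 6.86% of all genes, and a median of -0.28, or -0.43 with cells paired by depth. The lower calls rested on cow 2: leaving it out gave 0 lower, while cells of at most 20% mitochondrial share, which left 19 positive cells in cow 1, gave 1 and DESeq2 gave 0. There ZFP36, which destabilises inflammatory mRNAs, was at 89.7 CPM with GJA1 against 319 without, while cows 1 and 3 were at 50.8 and 30.0 against 63.9 and 28.6 (-0.92 ± 0.13, and -0.12 without cow 2). JUNB, an AP-1 subunit, was at -0.59 ± 0.10 and at -0.18 without cow 2. HSPH1, a heat shock chaperone, was at 134, 94.1 and 60.5 CPM against 98.1, 58.6 and 37.2 (0.60 ± 0.11). HSPA1A, the main inducible chaperone, was at -0.01.

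Of the 13 protein genes of the mitochondrial genome 5 were higher and 1, ND6, which lies on the light strand, was lower at -0.43 ± 0.10, beside 7.01% higher and 6.86% lower among all genes. Cytochrome b (CYTB) had the largest step, 0.39 ± 0.08. This is the mitochondrial share described above seen gene by gene. None of the 13 was higher without cow 1, while 1 was without cow 3. Taking the 13 genes out of the table left 548 higher and 500 lower genes.

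Other large differences came from genes outside the lists. The 10 highest by the rule given under the processing, among genes with a mean of at least 20 CPM, held 8 with symbols, and they included CSTB, SULT1A1 and SCGB1C1. CSTB, a cystatin that inhibits cathepsins, was at 25.4, 33.2 and 83.6 CPM with GJA1 and 16.2, 10.4 and 19.9 without (1.74 ± 0.16, and 1.11 without cow 3). SULT1A1, a phenol sulfotransferase, was at 492, 593 and 118 against 168, 198 and 46.0 (1.50 ± 0.09). SCGB1C1, a secretoglobin, was at 60.2, 67.5 and 80.7 against 23.7, 39.3 and 25.5 (1.36 ± 0.13).

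Those lower on the positive side were led by PDK4, followed by CCDC3, PID1, CLSPN, POLD3, BCAM, GMNN, NQO2, UACA and COL14A1. BCAM, a laminin receptor, was at 28.3, 25.5 and 88.2 CPM against 64.3, 68.2 and 184 (-1.15 ± 0.12). NQO2, a quinone reductase, was at 102, 58.7 and 85.9 against 170, 218 and 172 (-1.13 ± 0.11). COL14A1, a collagen bound to fibrils, was at 17.4, 18.8 and 20.2 against 30.1, 37.5 and 50.3 (-1.10 ± 0.17). UACA was at 302, 120 and 288 against 549, 380 and 590 (-1.12 ± 0.09). In the last 3 genes the sides did not overlap.

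Mean levels over the cows were ordered by the number of GJA1 copies for the channel-gap-like, suprabasal and S phase lists, though not at each step in each cow. In cells with 0, 1, 2 to 5, and 6 or more GJA1 UMIs, the channel-gap-like genes averaged 12.3, 18.6, 32.0 and 48.3 per 10000 UMIs over the cows, and the suprabasal genes 82.5, 103, 118 and 147. The S phase genes averaged 17.6, 15.5, 10.1 and 7.80. In cow 1 the cells with 1 UMI were at 11.8 against 12.2 for the channel-gap-like genes and at 17.2 against 13.6 for S phase, so the first step was absent or went the other way there. The suprabasal genes went from 74.2 to 67.0 between 0 and 1 UMI in cow 1, and from 116 to 109 between 1 and 2 to 5 UMIs in cow 2. The classes were small, with 11 to 59 cells of 1 UMI, 20 to 25 cells of 2 to 5 and 12 to 32 cells of 6 or more in a cow, and depth differed between them. The median along the classes was 14476, 16507.5, 19930.5 and 19747.5 UMIs in cow 1, 17938, 25117, 21111 and 22326 in cow 2, and 14682, 16096, 16782 and 21768.5 in cow 3, so that it rose at each step in cow 3 alone. The class nearer to mitosis held 50.9%, 30.0%, 58.3% and 50.0% of the cells in cow 1, 46.2%, 63.6%, 65.0% and 66.7% in cow 2, and 48.4%, 59.3%, 80.0% and 85.7% in cow 3. RNA of the mitochondrial genome averaged 1553, 1681, 1862 and 2129 per 10000 UMIs. The part of depth, phase and mitochondrial RNA in these steps was not tested.

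**Figure D4:**
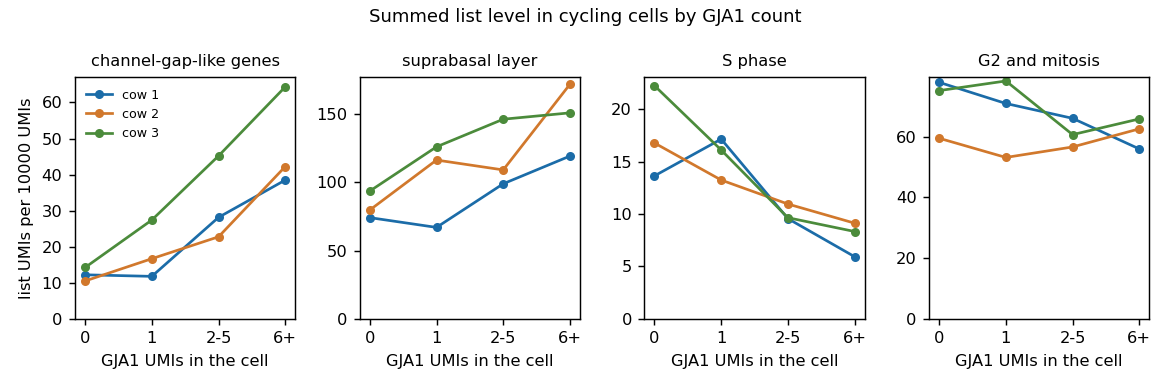
Summed level of 4 gene lists in cycling cells, in UMIs per 10000 UMIs with the 3 genes of the selection left out, by the number of GJA1 UMIs in the cell, with 1 line per cow. Channel-gap-like genes run from a mean of 12.3 to 48.3 and S phase genes from 17.6 to 7.80, while the G2 and mitosis list has no single direction.

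The positive cells were not uniform. Within cow 1 the channel-gap-like genes had a median of 25.1 per 10000 UMIs in single cells with GJA1, with a 10th percentile of 9.03 and a 90th of 48.7, against a median of 8.08 in cells without. In cow 2 the median was 19.9 against 8.01 and in cow 3 it was 34.0 against 8.48. Of the cells with GJA1, 52.6%, 53.5% and 57.1% in cows 1 to 3 exceeded the 90th percentile of the cells without. Of the same cells 90.8%, 95.3% and 83.7% lay above the median of the cells without GJA1, so a minority in each cow did not stand out. With cells paired by depth, which left 72 of the 76 positive cells of cow 1, 41.7%, 53.5% and 59.2% exceeded the 90th percentile of their paired cells. For S phase genes, 21.1%, 20.9% and 25.5% of the cells with GJA1 lay at or below the 10th percentile of the cells without, and 6.58%, 4.65% and 1.02% lay above its 90th. With cells paired by depth these shares were 26.4%, 46.5% and 27.6% at or below the 10th percentile of the paired cells and 12.5%, 4.65% and 1.02% above their 90th. This pairing did not hold phase. The class nearer to mitosis held 47.2%, 65.1% and 68.4% of the paired cells with GJA1. It held 48.6%, 30.2% and 55.1% of those without. In cow 2 the S phase list was at 21.2 per 10000 UMIs in the paired cells without GJA1, against 16.8 before pairing. The part of phase in these shares was not tested.

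The same division was then made in non-cycling cells, 1694 with GJA1 and 15841 without, to set the contrast beside that of the cycling cells. These cells come from the same cows but share no cell with the cycling ones. There 2190 of 10755 genes tested (20.4%) were higher and 2094 (19.5%) lower. Of the 539 genes higher in cycling cells 497 were also higher in non-cycling cells, which is 92.2% of the shorter list and 22.7% of the longer one. For the lower genes the overlap was 370, or 70.2% and 17.7%. Across the 7646 genes tested in both, which are not independent replicates, the log2 fold changes had a Pearson r of 0.726. Of 868 genes called in both, 644 had the smaller absolute change in the cycling cells, with medians of 0.56 against 0.77.

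The difference between the contrasts was itself tested, cycling minus non-cycling, over 12 sums and 10454 genes. It was lower for 394 genes (3.77%) and higher for 36 (0.344%). Of the 394, 365 were called higher with GJA1 in non-cycling cells, and 24 were called lower in cycling cells. Of the 36, 33 were called lower in non-cycling cells, and 2 were called higher in cycling cells. How many of these genes kept their direction with a smaller step in cycling cells was not counted. In thinned cells 62 were lower and 7 higher. The depth of the sides differed more in non-cycling cells, with medians of 15877, 17607 and 13164.5 UMIs with GJA1 against 8855, 11296.5 and 8999 without, than in cycling cells, where the ratios were 1.24, 1.22 and 1.16; the part of depth was not tested beyond the thinning. The GJA1 level differed too, at 4.43, 3.24 and 3.099 per 10000 UMIs in non-cycling cells with GJA1 against 3.78, 2.26 and 1.76 in cycling ones, and with at least 2 GJA1 UMIs required in both populations the difference was lower for 233 genes and higher for 16. The make-up of the cells differed as well. Without GJA1, the DLK2 group was at 4.11, 6.05 and 1.76 per 10000 UMIs in non-cycling cells against 0.75, 1.97 and 0.52 in cycling ones. The part of this make-up in the called differences was not tested. Without the cow blocks no difference was called, with 293 genes at an unadjusted p under 0.05, and leaving out 1 cow gave 84 to 157 lower and 10 to 25 higher, the fewest without cow 1.

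Of the channel-gap-like list 9 of 16 and of the suprabasal list 11 of 20, which share members, differed with the lower contrast in cycling cells, beside 3.77% of all genes tested for the difference. The lists were chosen with earlier results of these data known. In non-cycling cells 16 of 16 and 20 of 20 tested members were higher with GJA1. These counts are therefore not independent evidence of a smaller step in cycling cells. BPIFA2C changed by 4.14 in cycling and 5.95 in non-cycling cells (difference -1.85 ± 0.39), GSTA1 by 2.05 and 3.68, KRT6A by 1.203 and 2.58, and FABP4 by 1.34 and 2.99 (-1.70 ± 0.19). WFDC18, of the whey acidic protein family of secreted antiproteases, was at 7.88, 98.2 and 45.8 CPM in cycling cells with GJA1 and at 109, 179 and 383 in non-cycling ones, against 15.9, 28.1 and 17.4 and 6.36, 10.3 and 12.3 without. Its step was 1.29 and 4.44 (difference -3.21 ± 0.29), and in cycling cells of cow 1 it went the other way. RBP2 (difference -1.40) and SLC9A2 (-0.88) did not pass this test.

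Of the S phase list, 6 of 42 genes differed, each with the lower contrast in cycling cells, beside 3.77% of all genes. PCNA was at -0.75 in cycling and at -0.23 in non-cycling cells, where it was not called (edgeR adjusted p of the difference = 0.0269). In non-cycling cells, which held 3.25 to 8.02 per 10000 UMIs of the list, 11 of 39 members were lower with GJA1, beside 19.5% of all genes tested there, and the median was -0.19. For CLSPN the difference was -0.96 and for GMNN -0.48, and neither passed.

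Among the 36, RBPJ, the DNA-binding partner of Notch, differed by 0.97 ± 0.15. Scaled over all 12 sums, it was at 37.4, 40.1 and 38.8 CPM in cycling cells with GJA1 and at 48.7, 53.2 and 45.4 without, and at 49.2, 50.6 and 35.3 against 125, 123 and 84.3 in non-cycling cells. It therefore fell by 1.29 with GJA1 outside the cycle, while the cycling sides lay close at -0.28 (not called). GABARAPL1, an autophagy protein, and GPNMB, a membrane glycoprotein, had fitted contrasts of -1.37 and -1.26 outside the cycle and -0.13 and -0.04 within it. In cycling cells GABARAPL1 was at 32.8, 8.02 and 17.8 CPM with GJA1 against 26.6, 23.7 and 19.1 without, so it fell in cow 2. GPNMB was at 24.9, 5.01 and 0.54 CPM against 24.9, 6.52 and 0.63, near the floor in cow 3.

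**Figure D5:**
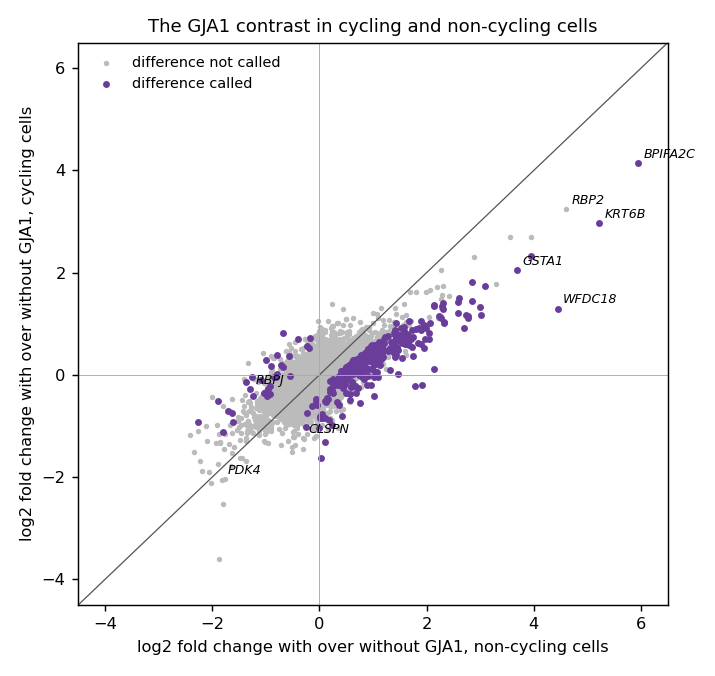
Log2 fold change with over without GJA1 of each gene tested in both populations, in non-cycling cells (horizontal) and cycling cells (vertical); purple marks a called difference between the contrasts and the diagonal marks equal change. Points gather between the diagonal and the horizontal axis, with r = 0.726 over 7646 genes.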

How the data were processed

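Epithelial cells of 3 cows were profiled on a droplet platform, and per the labels Cell Ranger 3.1.0 was run by the authors. Following the study's methods, cells were filtered on genes, UMIs and mitochondrial share, predicted doublets were removed, and cells of other tissues were left out. Doublet calling was not repeated. The deposited counts are UMIs per gene and cell. The deposited natural log values (natural log of 1 plus UMIs per 10000) were used only to name the matrix rows, which matched the named table for 19533 rows to within 1e-06. Depth was 38912809, 94856658 and 104189434 UMIs for cows 1 to 3.

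Members and gene lists were chosen with earlier results of these data known. Counts were summed per cow and side and tested with edgeR 4.0.16 (quasi-likelihood, TMM, filterByExpr) in R 4.3.3, with the cow as the block, because both sums of a pair come from the same animal and library. Standard errors are the absolute log2 fold change over the root of F. With 3 cows and 6 sums the fit had 2 residual degrees of freedom and an infinite prior, so that all genes shared 1 spread. A call needed a Benjamini-Hochberg adjusted p under 0.05 and an absolute log2 fold change over 0.25. The difference between cycling and non-cycling contrasts was tested over 12 sums with cow by cycling class as the block. The 1459 cells with 1 or 2 UMIs of TOP2A plus MKI67 entered neither side. Named genes were the 10 called genes per direction with the largest change at a mean of at least 20 CPM and the same sign in 3 of 3 cows, the 5 per direction for the difference, and per list the 2 most abundant members and up to 3 called ones with the largest change; other list members named were chosen after their values were seen. Some genes that the rule takes are not reported here. Shares carry exact (Clopper-Pearson) 95% intervals. Alternatives were DESeq2 1.42.0, limma-voom (limma 3.58.1), other filters, scalings and limits, thinned or paired cells, and each cow left out.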

Additional observations from a re-analysis of the deposited data

Results flagged for a closer look

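The GJA1 contrast differed between cycling and non-cycling cells for 36 genes in the higher and 394 in the lower direction (edgeR test of the difference). Among the 5 genes per direction with the largest called differences at a mean of at least 20 CPM, the step was larger in non-cycling cells for WFDC18 (difference -3.21), KRT6B (-2.31), BPIFA2C (-1.85) and FABP4 (-1.70). KRT6B was at 0 UMIs in the cycling cells of cow 1 with GJA1. KIF4A, a mitotic kinesin, differed by -2.03, with -0.22 in cycling cells (not called) against 1.79 in non-cycling ones, where its level was 0.394 to 4.46 CPM.

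In the other direction, the difference was 1.35 for the matrix glycoprotein THBS1, 1.28 for the chemokine CXCL3, 1.205 for GABARAPL1, 1.197 for GPNMB and 0.97 for RBPJ. Each of the 5 was lower with GJA1 in non-cycling cells, at -2.26 to -1.26. CXCL3 was at 82.5 CPM in cycling cells of cow 2 without GJA1 and at 11.6 to 17.3 CPM in the other 5 cycling sums, and its contrast in cycling cells, -0.93, was -0.03 without cow 2.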

How the results depend on the processing

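Leaving the cow block out of the model, so that each pair of sums from 1 animal was no longer compared within the animal, gave 0 higher and 0 lower genes in cycling cells, 280 and 180 in non-cycling cells, and 0 and 0 for the difference. In cycling cells DESeq2 called 186 higher and 104 lower, thinned cells gave 172 and 181, cells paired by depth 352 and 350, cells of at most 20% mitochondrial share 290 and 255, and, as alternatives chosen after seeing the data, cells paired by depth and phase 217 and 247 and cells with exactly 1 GJA1 UMI 6 and 1. Leaving out 1 cow gave 225 to 475 higher and 232 to 309 lower, the fewest without cow 3. The remaining settings, among them limma-voom (575 and 445, also added later), stayed within 1.5 times of the reported counts. In non-cycling cells DESeq2 called 1340 and thinned cells 1317 lower. The difference had 16 higher and 233 lower genes at 2 or more GJA1 UMIs, 7 and 62 in thinned cells, 66 and 152 with library size alone, 107 and 241 with no filter on low counts and 241 lower with DESeq2; leaving out 1 cow gave 10 to 25 higher and 84 to 157 lower. Of the named genes that were called, CXCL3 (0.0162) and FABP4 (-0.0586) changed sign, both in cells with exactly 1 GJA1 UMI; sign changes of uncalled genes were not counted. With 2 or more GJA1 UMIs the depth ratio was 1.27. The causes were not tested. Of the called named genes, 15 lost their call in DESeq2 and 0 with limma-voom. DESeq2 gave an adjusted p for 73 of the 87 named genes and limma-voom for all 87, so called genes among the rest are not in the 15. In cells with exactly 1 UMI 58 lost their call with the sign kept, beside the 2 that changed sign. The number of positive cells, 43 to 98 a cow, limits the scarce genes.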
